A study of Mus musculus with 8 samples.

Results

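Here 8 genes of the extraembryonic endoderm were followed in an H3K27me3 ChIP-seq series from mouse embryonic stem cells: the basement membrane genes Col4a1, Col4a2 and Lamc1, the regulator Hnf4a, the signalling antagonist Cer1, the uptake receptor Cubn, and the serum protein genes Afp and Apoa1. Each was taken as the transcript interval that best matched its RefSeq span, with a shared length of 0.5 or more of the joint length. All 8 listed genes were found among 20218 named genes and 50398 intervals. Their overlaps with RefSeq lay between 0.999 and 1.

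Cells of the E14tg2a line (129SV background) carried a stably expressed cRAF-ErT2 cassette, a RAF kinase fused to a receptor domain that 4-hydroxytamoxifen (4OHT) switches on, which drives the ERK kinases. All groups, treated and untreated, had this cassette and came from clones A and B. All were grown in serum medium with LIF and the GSK3 inhibitor Chir99021 (2 µM). For the last 24 h before treatment, this inhibitor was replaced by the FGF receptor inhibitor PD173074 (250 nM). The treated group was given 250 nM 4OHT for 2 h, and the untreated group (0 h) was given none. Each group had 2 H3K27me3 libraries, 1 per clone, so a group rests on 2 clones of 1 line. The 4 input libraries were not analysed here. Column totals ran from 70378127 to 92518605 counts. Of the stem cell and housekeeping genes listed for scale, 12 of 13 had less H3K27me3 than the median gene, with Nanog at 0.695 and Sox2 at 0.305 times it.

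H3K27me3 is the repressive histone mark that Polycomb repressive complex 2 places on genes held silent. In the blastocyst, FGF and ERK signalling steers inner cells toward primitive endoderm, which forms parietal and visceral endoderm. Parietal endoderm lays down a thick basement membrane of laminin and type IV collagen. Visceral endoderm takes up maternal proteins, secretes serum proteins such as alpha-fetoprotein and apolipoproteins, and at its anterior end makes antagonists that pattern the embryo. The data do not say which of these genes are transcribed in the cells, since a histone mark is not a measure of RNA. In a population of cells, less mark per cell and fewer cells with the mark cannot be told apart.

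Promoter windows from RefSeq (GRCm38.p6, the assembly of mm10; 250 bases before to 50 after a transcript start, 300 bp in all) were found for 7 of the 8 genes, in 8 windows. Of these, 5 are shown. Col4a1 and Col4a2 are shown because they start at nearly the same place on opposite strands, and their windows share 78 bases. Hnf4a is shown because it has 2 promoters whose transcripts were counted separately, and Cer1 because it differed most between the clones. Each is written 5′ to 3′ on the strand of its gene, with CG dinucleotides in capitals.
Col4a1, chr8:11312777-11313076, minus strand: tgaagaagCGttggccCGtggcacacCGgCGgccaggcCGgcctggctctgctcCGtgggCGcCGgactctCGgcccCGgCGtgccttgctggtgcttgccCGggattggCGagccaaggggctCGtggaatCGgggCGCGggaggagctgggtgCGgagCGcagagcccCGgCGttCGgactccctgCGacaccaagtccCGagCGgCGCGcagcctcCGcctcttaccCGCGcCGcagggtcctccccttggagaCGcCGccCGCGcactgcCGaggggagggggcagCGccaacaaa
Col4a2, chr8:11312555-11312854, plus strand: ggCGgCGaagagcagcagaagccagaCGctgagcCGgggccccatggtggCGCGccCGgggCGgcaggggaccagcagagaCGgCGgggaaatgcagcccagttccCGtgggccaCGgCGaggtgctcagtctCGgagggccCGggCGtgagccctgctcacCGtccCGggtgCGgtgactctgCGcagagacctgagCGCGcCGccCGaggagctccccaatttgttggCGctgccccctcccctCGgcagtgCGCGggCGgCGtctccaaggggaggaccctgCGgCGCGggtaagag
Hnf4a, upstream promoter, chr2:163506607-163506906, plus strand: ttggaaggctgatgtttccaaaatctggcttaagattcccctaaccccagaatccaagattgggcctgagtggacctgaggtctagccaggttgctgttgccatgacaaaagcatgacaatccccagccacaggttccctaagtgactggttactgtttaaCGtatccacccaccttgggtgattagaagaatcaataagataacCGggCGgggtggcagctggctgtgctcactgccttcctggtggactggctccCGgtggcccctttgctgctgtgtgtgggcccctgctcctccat
Hnf4a, downstream promoter, chr2:163546905-163547204, plus strand: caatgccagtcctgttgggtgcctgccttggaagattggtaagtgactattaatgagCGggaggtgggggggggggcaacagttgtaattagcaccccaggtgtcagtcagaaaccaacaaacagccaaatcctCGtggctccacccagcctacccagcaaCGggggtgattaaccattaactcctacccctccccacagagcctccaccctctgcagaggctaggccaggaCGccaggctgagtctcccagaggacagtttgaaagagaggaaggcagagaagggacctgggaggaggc
Cer1, chr4:82885102-82885401, minus strand: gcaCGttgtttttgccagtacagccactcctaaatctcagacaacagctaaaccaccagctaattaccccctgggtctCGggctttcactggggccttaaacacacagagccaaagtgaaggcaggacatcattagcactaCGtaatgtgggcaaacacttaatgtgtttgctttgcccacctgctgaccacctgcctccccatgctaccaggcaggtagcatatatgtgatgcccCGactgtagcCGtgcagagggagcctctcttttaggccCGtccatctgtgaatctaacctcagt

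The collagen windows held far more CG dinucleotides than the others. The Col4a1 window held 37 CG dinucleotides and the Col4a2 window 33, above 94.4% and 91.4% of 32851 RefSeq windows. The Cer1 window held 6, the Cubn window 5, both Hnf4a windows and the Apoa1 window 4, and the Afp window 3, against a median of 7 over all windows. The letters TATAAA, searched on both strands, were found in 1 of the 8 windows, that of Afp, and in 13.6% of all windows. This is a match of letters only.

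The first question was how much H3K27me3 the 8 genes carried. Values are densities, that is, counts per kb of interval per 1000000 counts of the column total, and the median gene stood at 0.357. No gene of the 8 reached 4 times the median gene, the limit used to call a gene marked, against 5.76% of named genes that did. At 2 times the median there were 4 of the 8, Apoa1, Col4a1, Col4a2 and Cer1, against 18.8% of named genes. Hnf4a, Afp and Cubn lay between the median gene and 2 times it, and Lamc1 lay far below the median. No test was made on these levels, and without input they are not enrichments.

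Among the basement membrane genes, Col4a1 encodes the alpha 1 chain of type IV collagen, the sheet-forming collagen of basement membranes (chromosome 8, 11198423 to 11312826, mm10, minus strand). It measured 0.758 in clone A and 0.761 in clone B at 2 h, and 0.757 in clone A and 0.808 in clone B at 0 h. Col4a2, the partner chain that assembles with it, runs the other way from the same promoter (chromosome 8, 11312805 to 11449287, plus strand). It measured 0.780 in clone A and 0.748 in clone B at 2 h, and 0.748 in clone A and 0.759 in clone B at 0 h. The pair stood at 2.16 and 2.13 times the median gene, and the ratio of Col4a1 to Col4a2 was 1.02 ± 0.0386 (SD over 4 libraries), so they did not differ beyond their spread. Their intervals overlap at the shared promoter, so reads there cannot be assigned to one of them.

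Lamc1 encodes the laminin gamma 1 chain, which is part of most laminins and joins collagen IV in basement membranes (chromosome 1, 153218922 to 153332786, minus strand). It measured 0.0965 in clone A and 0.110 in clone B at 2 h, and 0.0907 in clone A and 0.0974 in clone B at 0 h. All 4 libraries were low, at 0.277 times the median gene, and none came near those of any other of the 8 genes. Lamc1 is 113865 bp long and Col4a1 114404 bp, so the lengths are nearly equal, and the density of Col4a1 was 7.85 ± 0.672 times that of Lamc1 (SD over 4 libraries). Lamc1 lay above 13.5% of coding genes of 0.5 to 2 times its length, and Col4a1 above 93.5%.

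Hnf4a encodes a nuclear receptor that drives visceral endoderm and liver genes (chromosome 2, 163506809 to 163572907, plus strand). It measured 0.577 in clone A and 0.575 in clone B at 2 h, and 0.513 in clone A and 0.561 in clone B at 0 h, or 1.56 times the median gene. Both 2 h libraries lay above both 0 h libraries. Cer1 encodes Cerberus 1, a secreted antagonist of Nodal and Bmp ligands made by anterior visceral endoderm (chromosome 4, 82881751 to 82885151, minus strand). It measured 0.556 in clone A and 0.940 in clone B at 2 h, and 0.677 in clone A and 0.825 in clone B at 0 h. The clone A libraries were both below the clone B libraries, and the 2 h values spanned the 0 h values on both sides. This gene is 3401 bp long and rests on 162 to 272 counts per library.

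Cubn encodes cubilin, the visceral endoderm and kidney receptor that takes up vitamin-binding and lipid-carrying proteins (chromosome 2, 13276338 to 13491876, minus strand). It measured 0.381 in clone A and 0.446 in clone B at 2 h, and 0.387 in clone A and 0.444 in clone B at 0 h. Values within a clone were almost equal over time, and clone A was the lower at both times. Afp encodes alpha-fetoprotein, the fetal serum protein (chromosome 5, 90490714 to 90508907, plus strand), and measured 0.537 in clone A and 0.555 in clone B at 2 h, and 0.530 in clone A and 0.587 in clone B at 0 h. The 2 h values lay within the range of the 0 h values. Apoa1 encodes the main protein of high-density lipoprotein (chromosome 9, 46228630 to 46230469, plus strand). It measured 0.922 in clone A and 0.901 in clone B at 2 h, and 0.842 in clone A and 0.943 in clone B at 0 h. This was the highest mean of the 8, 2.53 times the median gene, but from an interval of 1840 bp and 109 to 157 counts per library.

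**Figure D1:**
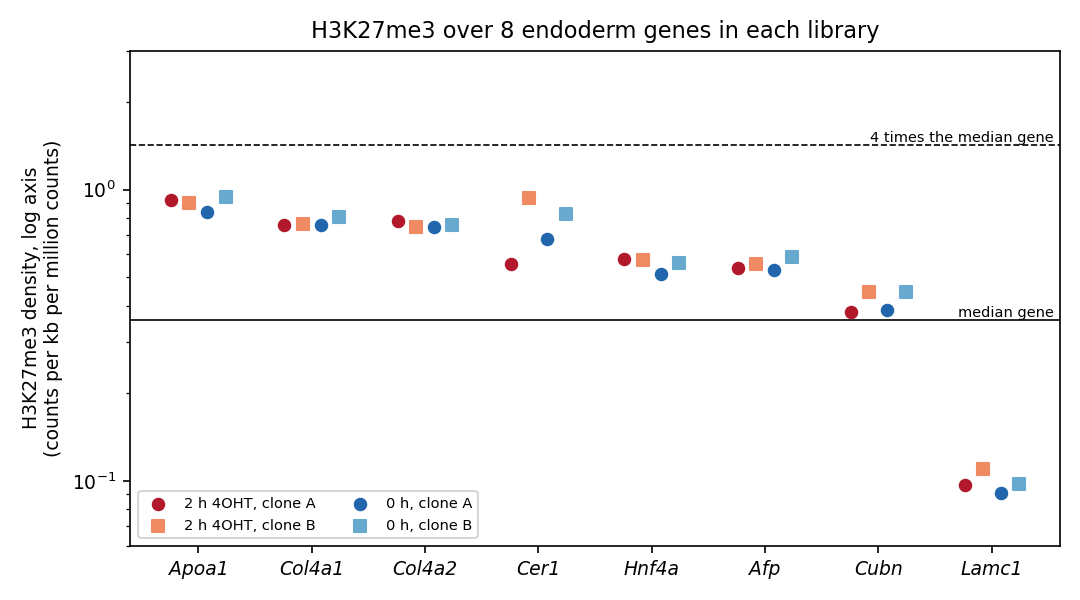
H3K27me3 density (counts per kb per 1000000 counts, log axis) of the 8 genes, with 1 point for each of 4 libraries, 2 h of 4OHT in red and orange and 0 h in blues, clone A as circles and clone B as squares. The solid line is the median gene (0.357) and the dashed line 4 times it: 7 genes lie between the lines and Lamc1 lies below both.

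The order of mean densities was Apoa1, Col4a1, Col4a2, Cer1, Hnf4a, Afp, Cubn and Lamc1. The libraries of Apoa1 lay apart from those of Col4a1, those of Afp from those of Cubn, and those of Cubn from those of Lamc1. The other 4 neighbouring pairs in that order overlapped. Cer1 varied most, at 0.749 ± 0.168 over 4 libraries, against 0.758 ± 0.0153 for Col4a2 and 0.556 ± 0.0296 for Hnf4a (SD, n = 4). The coding genes with the nearest log2 densities over the 4 libraries were Fam47e for Col4a1, Bpifc for Col4a2, Anp32a for Lamc1, Arhgap40 for Hnf4a, Fabp9 for Cer1, Slc2a12 for Cubn, Lrrc17 for Afp and Ank1 for Apoa1. The distances were 0.017 to 0.050 on the log2 scale, apart from 0.20 for Fabp9.

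Interval length may bear on these ranks, which was not tested, so the genes were also set against coding genes of like length. Among coding genes of 0.5 to 2 times their length, Col4a2 lay above 93.6%, Apoa1 above 83.3%, Hnf4a above 80.2%, Afp above 76.0%, Cer1 above 72.2% and Cubn above 67.1%. Col4a1 and Col4a2, both over 100 kb, were thus the highest of the 8 for their length. Promoter class gave another view. Among 5558 other coding genes with 15 or more CG dinucleotides in a window, Col4a1 lay above 86.9% and Col4a2 above 86.6%. Among 3270 with 0 to 5, Apoa1 lay above 92.2%, Hnf4a above 74.3%, Afp above 74.1% and Cubn above 56.5%. Cer1 lay above 81.1% of 2169 genes with 6 to 14. The median coding gene of the class with 15 or more stood at 0.444 times the median gene and that of the class with 0 to 5 at 1.06. At 4 times the median gene or more the order was the other way, with 6.03% of the class with 15 or more and 2.35% of that with 0 to 5. Their median lengths also differed, at 26756 and 7154 bp.

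**Figure D2:**
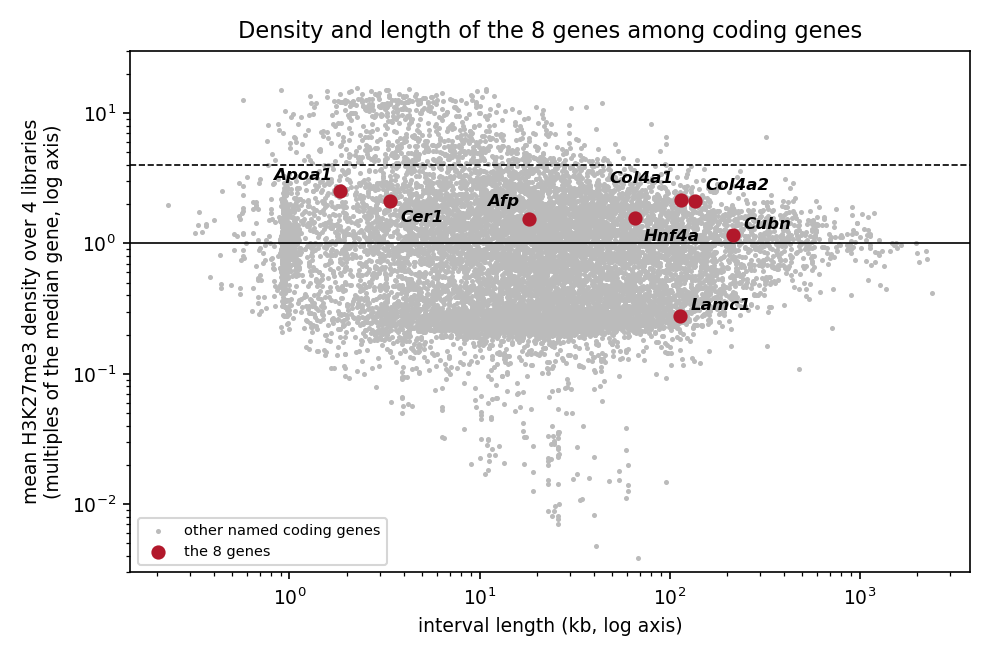
Mean H3K27me3 density over 4 libraries (multiples of the median gene, log axis) against interval length (kb, log axis) for named coding genes in grey and the 8 genes in red. Col4a1, at 2.16, and Lamc1, at 0.277 times the median gene, have nearly the same length, and lie above 93.5% and 13.5% of coding genes of like length.

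Further transcripts on the same loci gave densities for stretches within 4 of the genes. ChIP reads carry no strand of transcription, so an interval of an antisense transcript is taken here to measure the stretch of the gene that it covers. Whether strand was used in the counting is not stated in the labels. Within Col4a1, the antisense gene Gm32709 covers 27871 bp that begin 26.9 kb downstream of the start of Col4a1. This stretch had 1.75 ± 0.0514 times the density of the rest of the gene (SD over 4 libraries). Its first 6266 bp, nearest the Col4a1 start, were denser still, at 1.56 in clone A and 1.40 in clone B at 2 h, and 1.46 in clone A and 1.50 in clone B at 0 h. That stretch stood at 4.14 times the median gene, which no whole gene of the 8 reached, and at 2.27 ± 0.143 times the part of Col4a1 outside the Gm32709 stretch. In every library it was the densest stretch measured in the gene.

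Within Col4a2, a stretch of 30393 bp lies under the antisense gene Gm46030, from 8.50 to 38.9 kb downstream of the Col4a2 start. It had 1.02 ± 0.0725 times the density of the rest of the gene (SD over 4 libraries). No finer stretch of Col4a2 was measured, so its evenness along the gene cannot be compared with that of Col4a1. In Hnf4a, the 25753 bp from the downstream promoter to the end were denser than the 40346 bp between the 2 promoters. The downstream part measured 0.720 in clone A and 0.742 in clone B at 2 h, and 0.621 in clone A and 0.705 in clone B at 0 h. The upstream part measured 0.486 in clone A and 0.468 in clone B at 2 h, and 0.444 in clone A and 0.468 in clone B at 0 h. The ratio was 1.49 ± 0.0779 (SD over 4 libraries), above 1 in all 4. Most of the upstream stretch, up to position 163541721, is shared with the antisense transcript Hnf4aos. In Cubn, a stretch of 23089 bp near the end of the gene had 0.810 ± 0.0403 times the density of the whole gene. Reads that cross a boundary may be counted on both sides, and no finer position can be read from these intervals.

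**Figure D3:**
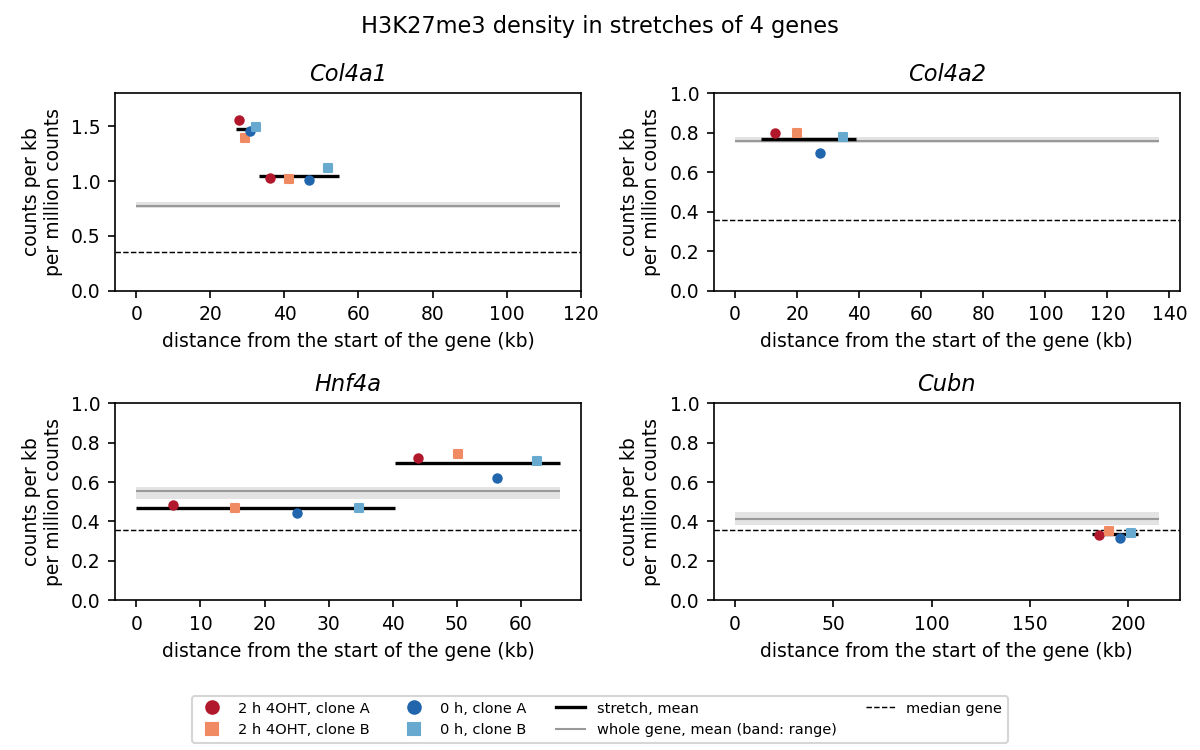
H3K27me3 density (counts per kb per 1000000 counts) against distance from the start of the gene (kb) in Col4a1, Col4a2, Hnf4a and Cubn, with 1 point per library on each stretch, set side by side for legibility (2 h of 4OHT in red and orange, 0 h in blues, circles for clone A, squares for clone B). Black lines are means of a stretch, grey lines and bands the mean and range of the whole gene, and the dashed line is the median gene: the stretch of Col4a1 that begins at 26.9 kb and the downstream part of Hnf4a stand above their gene's mean.

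Levels of the flanking genes were as follows. Rab20, 4689 bp beyond the end of Col4a2, stood at 3.07 times the median gene, and Irs2, on the far side of Col4a1, at 0.605 times it. Shcbp1l, 92422 bp from Lamc1, stood at 1.79 times the median, against 0.277 for Lamc1. Beside Hnf4a, R3hdml stood at 1.20 and Ttpal at 0.444, both below Hnf4a at 1.56. Apoa1, at 2.53, lies in a cluster of apolipoprotein genes. Apoc3 was close to it at 2.54, Apoa4 stood at 2.83 and Apoa5 at 5.31 times the median gene, and Sik3 on the other side of Apoa1 at 0.403. In the albumin cluster, Alb stood at 0.972 and Afm at 0.839 times the median, both below Afp at 1.55. Beside Cer1, Frem1 stood at 1.35 and Zdhhc21 at 0.377 times the median, both below Cer1 at 2.10. Beside Cubn, Rsu1 stood at 0.364 and Trdmt1 at 0.580, also below Cubn at 1.16.

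Wider lists place the 8 genes among others of their kind. Of 36 basement membrane genes, 26 were measured, with a median of 0.664 times the median gene. At 4 times it or more were 0, against 5.76% of named genes. The densest were Serpinh1, a collagen chaperone, at 2.69, Col15a1 at 2.47 and Lamc3, another laminin gamma chain, at 2.18. The least dense were Lama5, the laminin alpha 5 chain, at 0.203, the perlecan gene Hspg2 at 0.217 and the agrin gene Agrn at 0.248. Col4a1 and Col4a2 ranked just below the top 3, and Lamc1 was among the low genes. The other type IV collagen genes were lower than this pair, with Col4a3 at 1.31, Col4a4 at 1.10, Col4a6 at 0.730 and Col4a5 at 0.497. Col4a5 and Col4a6 lie on chromosome X and the others on autosomes, and densities were not corrected for copy number.

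Of 38 visceral endoderm genes, 27 were measured, with a median of 2.04 times the median gene. Of these, 4 were at 4 times the median gene or more (14.8%, against 5.76% of named genes). The hedgehog ligand gene Ihh stood at 10.7, Cited1, a transcription cofactor, at 6.29 and Bmp2 at 6.06, and Apoa5 was the fourth. The least dense were the E-cadherin gene Cdh1 at 0.316, the protease gene Ctsz at 0.372 and Apoe at 0.462. Apoa1 and Cer1 lay above the list's median, and Afp and Cubn below it. The receptor Lrp2, or megalin, which works with cubilin, stood at 1.23, close to Cubn at 1.16. Of 24 endoderm regulators, 15 were measured, with a median of 2.65. Of these, 6 were at 4 times the median gene or more (40.0%, against 5.76% of named genes). Sox17 stood at 12.3, Nr2f2 at 10.8 and Foxa2 at 10.8, and at the low end Nodal at 0.267 and Nr5a2 at 0.377. Hnf4a, at 1.56, lay below the median of that list. In the list of stem cell and housekeeping genes the median was 0.246, close to Lamc1, with B2m the exception at 2.48. After it came Nanog at 0.695 and Tbx3 at 0.533, and the least dense were Gapdh at 0.183, Lin28a at 0.236 and Tet1 at 0.239.

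**Figure D4:**
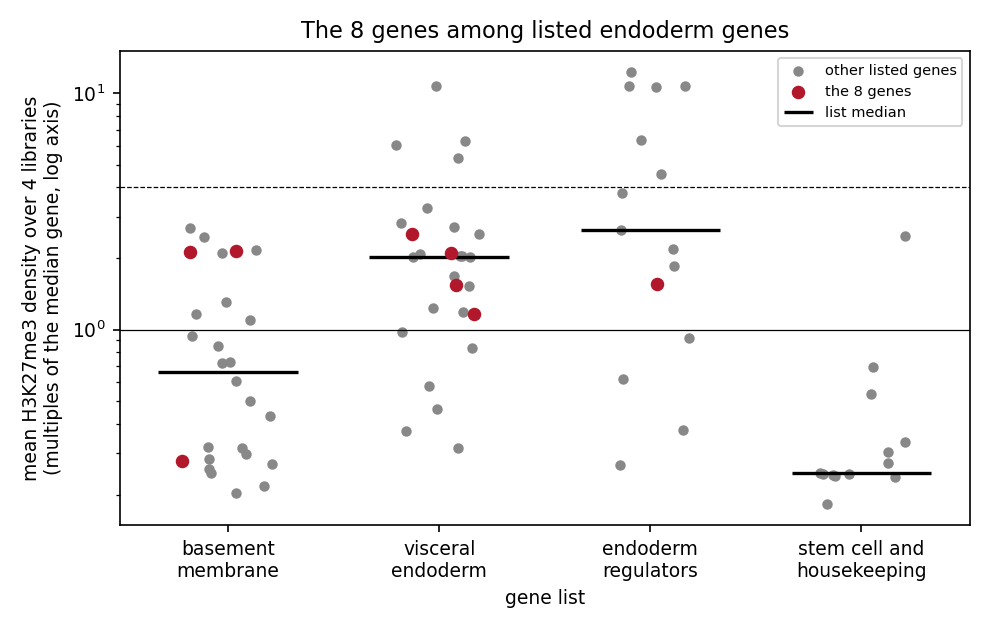
Mean H3K27me3 density over 4 libraries (multiples of the median gene, log axis) of the measured genes of 4 lists, with the 8 genes in red, other listed genes in grey and a black bar at each list's median (0.664, 2.04, 2.65 and 0.246). The solid line is the median gene and the dashed line 4 times it: all red points lie below the dashed line.

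The second question was whether 2 h of RAF-ERK activation changed H3K27me3 over these genes. None of the 8 passed the test, and none had an unadjusted p under 0.05, by edgeR's quasi-likelihood test or by DESeq2. Over all 50037 intervals tested, edgeR called 0 (0%), with 188 at an unadjusted p under 0.05, and DESeq2 called 0, with 2 at that level. These fits had no clone block, so clone differences enter their error, as in the SEs given below for changes over time. With clone as a block, edgeR also called 0, with 2078 at an unadjusted p under 0.05, and no gene of the 8 had one. The log2 changes of 2 h against 0 h ran from −0.05 for Col4a1 to 0.13 for Lamc1, with a median of 0.00. The median over all named genes was also 0.00.

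Col4a1 gave a log2 difference of −0.05 (SE 0.08), with a density of 0.760 ± 0.00257 at 2 h and 0.783 ± 0.0367 at 0 h (SD, n = 2 libraries per time, as for the other genes). Col4a2 stood at 0.764 ± 0.0229 at 2 h and 0.753 ± 0.00782 at 0 h, a log2 difference of 0.02 (SE 0.08). Lamc1 averaged 0.103 ± 0.00978 at 2 h and 0.0940 ± 0.00469 at 0 h, with a log2 difference of 0.13 (SE 0.12). Hnf4a averaged 0.576 ± 0.00171 at 2 h and 0.537 ± 0.0334 at 0 h, with a log2 difference of 0.10 (SE 0.10). These were the 2 differences farthest from 0 among the 8. They were also the only genes of the 8 to be higher at 2 h in both clones, by 0.09 in clone A and 0.18 in clone B for Lamc1, and by 0.17 in clone A and 0.04 in clone B for Hnf4a. Hnf4a was the 1 gene of 8 whose 2 h densities were all above its 0 h densities, a pattern seen in 10.9% of all intervals. Of coding genes, 35.8% had a change at least as far from 0 as that of Hnf4a, and 25.1% as that of Lamc1.

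For Cer1 the log2 change was −0.02 (SE 0.25), with means of 0.748 ± 0.272 at 2 h and 0.751 ± 0.105 at 0 h. This mean hides values of −0.28 in clone A and 0.19 in clone B. Cubn gave −0.01 (SE 0.11), Afp −0.04 (SE 0.12) and Apoa1 0.03 (SE 0.16). With clone as a block, the 95% intervals, each for 1 test alone, ran over −0.01 to 0.21 for Hnf4a, −0.02 to 0.28 for Lamc1, −0.14 to 0.05 for Col4a1 and −0.08 to 0.11 for Col4a2. They were −0.11 to 0.09 for Cubn, −0.19 to 0.12 for Afp, −0.29 to 0.24 for Cer1 and −0.29 to 0.34 for Apoa1. An interval over a whole gene dilutes a change confined to a promoter. The part of Hnf4a from its downstream promoter on gave 0.14 with clone as a block. Its 95% interval, for 1 test alone, was 0.01 to 0.26, and its edgeR adjusted p was 0.9999, so it did not pass. For the stretches under Gm32709 and Gm46030 such intervals crossed 0. The wider lists gave the same counts: 0 of 26 basement membrane genes, 0 of 27 visceral endoderm genes and 0 of 15 endoderm regulators passed, with medians of 0.02, 0.01 and 0.04 on the log2 scale.

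**Figure D5:**
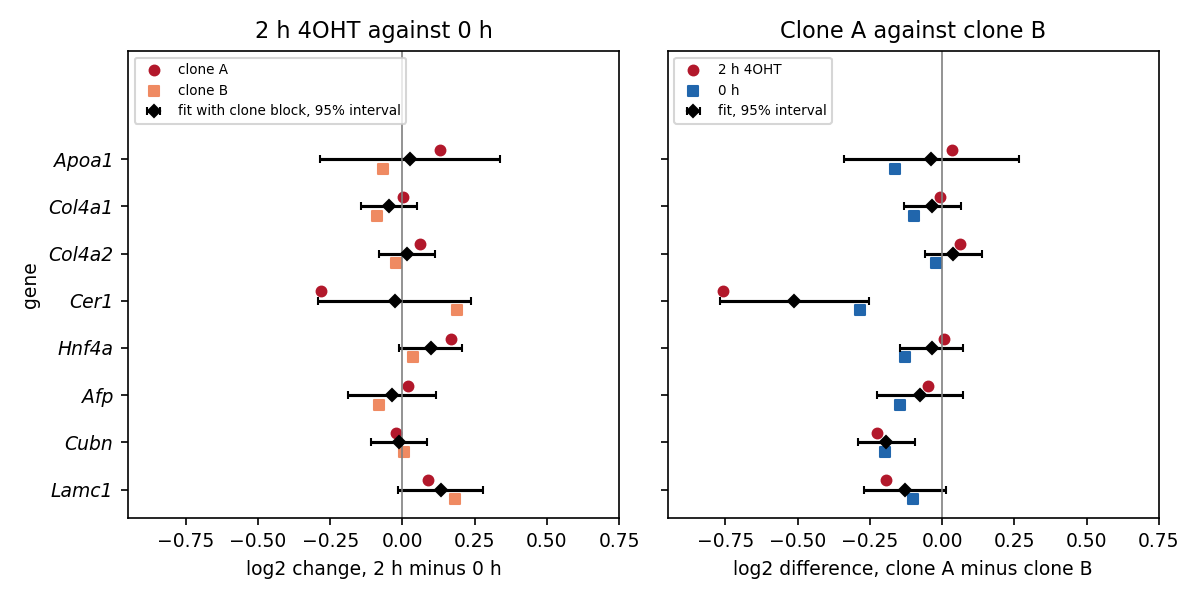
Log2 differences of the 8 genes, for 2 h of 4OHT minus 0 h (left) and clone A minus clone B (right). Black diamonds with bars are edgeR estimates with 95% intervals, each for 1 test alone, with a clone block in the left panel, and coloured points are the values in each clone or at each time: the bars at left all cross 0, and those of Cer1 and Cubn at right do not.

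The clones differed more than the times. Of the 8 genes, 2 passed between clone A and clone B, and both were lower in clone A. Over all 50037 intervals, 10.3% were called lower in clone A and 17.3% higher, so 2 of 8 is near the 27.5% called in either direction. Cer1 averaged 0.616 ± 0.0853 in clone A libraries and 0.883 ± 0.0816 in clone B libraries (SD, n = 2 each). The log2 difference was −0.51 (SE 0.13, edgeR adjusted p = 0.000782). It was lower in clone A at both times, by −0.76 at 2 h and −0.29 at 0 h on the log2 scale. Without the clone A library at 2 h the difference was −0.37 and the adjusted p from edgeR 0.0974, so the call rests on that library. Over all alternatives its adjusted p ran from 0.000522 to 0.0974. Cubn averaged 0.384 ± 0.00411 in clone A against 0.445 ± 0.00132 in clone B, with a log2 difference of −0.19 (SE 0.05, edgeR adjusted p = 0.000984), with −0.23 at 2 h and −0.20 at 0 h. Its call held without any single library, with adjusted p from 0.00416 to 0.0266 by edgeR.

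The clone differences of the genes around Cer1 and Cubn are given next, with no test against those of Cer1 and Cubn. Within 500 kb of Cer1, 4 coding genes were tested and 0 were called, with a median of 0.01. Within 500 kb of Cubn, 6 were tested, with a median of −0.04. St8sia6 was called lower in clone A at −0.16 and the vimentin gene Vim higher at 0.67. Pter at −0.12, Rsu1 at −0.07, and C1ql3 and Trdmt1 at −0.00 did not pass. Within 1000 kb of Cubn, 13 were tested, with a median of −0.07, and 2 were called lower and 1 higher. Chromosome medians were 0.03 for chromosome 4 and 0.02 for chromosome 2. Among the 1309 coding genes of like density (bins of equal size), the median was 0.05 for the bin of Cer1 and 0.01 for that of Cubn. There, 0.917% had a lower value than Cer1 and 15.4% than Cubn. The differences of the other 6 did not pass, from −0.13 for Lamc1 to 0.04 for Col4a2. In 5 of the 8, both clone A libraries lay below both clone B libraries, as in 31.7% of all intervals.

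In the wider lists, calls went both ways, and their counts stand against 17.3% of all intervals called higher in clone A and 10.3% called lower. Of 26 basement membrane genes, 3 were higher in clone A (Serpinh1, Lamc3 and Col4a5) and 6 lower (Col15a1, Lamb3, Lama4, Col4a4, Col18a1 and Hspg2). Of 27 visceral endoderm genes, 6 were higher (Ihh, Bmp2, Apoa5, Trf, Vil1 and Alb) and 6 lower (Cer1, Fga, Slc2a2, Lrp2, Cubn and Cdh1). The pair of uptake receptors, Cubn at −0.19 and Lrp2 at −0.21 on the log2 scale, were both lower in clone A. Of 15 endoderm regulators, 5 were higher (among them Sox17, Foxa2, Cebpa and Mixl1) and 2 lower (Foxa3 and Nr5a2), and Hnf4a was not among them, at −0.04 (SE 0.06). Of the 13 stem cell and housekeeping genes, Tbx3 was higher and B2m lower in clone A. Densely marked genes were higher in clone A: the median over the densest 1309 coding genes was 0.19, against −0.05 in the least dense 1309. None of the 8 genes is in either bin. The part of this trend in the differences between the clones was not tested.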

How the data were processed

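Chromatin was fixed with 1% formaldehyde for 10 min, sonicated and precipitated with an H3K27me3 antibody, per the labels' protocols. The deposited table gives raw whole-number counts of reads over transcript intervals, per the file headers. Bowtie2, bedtools and mm10 were used, per the submitters' processing notes (versions and strand handling: not given in the sources used here). Rows cover chromosomes 1 to 10, X, Y and M. Another 16 value columns were left aside. Since 84.8% of intervals overlap another, column totals are not sequencing depths.

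Names come from the RefSeq gene (GRCm38.p6) that each interval overlaps (at least 0.5 of the union and 0.2 above the next gene), which named 43783 intervals (86.9%). Values per gene come from the best-matching interval. Tests used edgeR 4.0.16 quasi-likelihood fits in R 4.3.3 on all intervals (TMM factors, filterByExpr, 50037 kept), with Benjamini-Hochberg adjusted p-values read at 0.05. DESeq2 1.42.0, other factors and filters, and leaving out each library were alternatives. Scripts were tested on simulated data. The clone letters pair the libraries, since each clone was sampled at both times per the labels; libraries of a clone deviated together from the time means (r = 0.514, a description across 50037 overlapping intervals). With 2 libraries per group, p-values reflect only how these samples vary, which may be technical, and there are no molecular identifiers. The members and lists were chosen with earlier results of these data known. Named were the 8 members, their neighbours and most alike genes, and, per list, the 3 densest, the 3 least dense and any that passed; other genes were chosen after their values were seen. Some items that this rule names are not reported here. Input comparisons were not run. R, Python 3.11.15 and Matplotlib 3.10.9 were used.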

Additional observations from a re-analysis of the deposited data

Results flagged for a closer look

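Over 2 h, 6 of the 8 genes had log2 changes of opposite sign in the clones, which was not tested, as a clone has only 1 library at each time. The difference of the log2 changes, clone A minus clone B, was largest for Cer1 at −0.47 (−0.28 in clone A and 0.19 in clone B). It was 0.20 for Apoa1 (0.13 in clone A and −0.07 in clone B, and in that order below), 0.10 for Afp (0.02 and −0.08), 0.0888 for Col4a1 (0.00 and −0.09), 0.0824 for Col4a2 (0.06 and −0.02) and −0.0279 for Cubn (−0.02 and 0.01). For Hnf4a, the difference between clone A and clone B changed sign between the times, with 0.01 at 2 h and −0.13 at 0 h (difference 0.13), also not tested.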

How the results depend on the processing

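For 2 h against 0 h, all settings gave 0 calls in both directions, except that without the clone A library at 2 h 1 interval was called lower (range 0 to 1 over the libraries left out). With the replicate block, where clone letters pair the libraries, 0 intervals were called higher and 0 lower and no call changed. Leaving out single libraries turned the sign of small changes over time, none of which passed: the ranges were −0.0348 to 0.0448 for Col4a2, −0.44 to 0.30 for Cer1, −0.131 to 0.0870 for Cubn, −0.110 to 0.0348 for Afp and −0.0538 to 0.108 for Apoa1. Between the clones they were −0.117 to 0.0175 for Col4a1, −0.0122 to 0.0790 for Col4a2, −0.137 to 0.0522 for Hnf4a and −0.122 to 0.0296 for Apoa1. The other settings turned no sign. Between the clones, 8633 intervals were called higher and 5132 lower in clone A. DESeq2 called 5681 and 3035, and leaving out single libraries gave 5252 to 8087 and 3414 to 4398, lowest for higher calls without clone B at 2 h and for lower calls without clone B at 0 h. The cause was not tested. Each such fit leaves a group with 1 library, assumed to vary like the others. With 1 interval per gene, chosen after seeing the data, calls were 3181 and 2113, and 3151 and 2059 with time as a term, from fewer tests (19939). At a limit of 2 times the median gene, 4 of the 8 genes counted as marked, and 0 at 8 times. Counts of 109 to 272 per library limit Apoa1 and Cer1.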
